A study of Mus musculus with 60 samples.

Results

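Non-coding RNA of the mouse heart was measured in libraries of total RNA depleted of ribosomal RNA. It is described here from 4 tables, of long non-coding RNAs (lncRNAs), small nucleolar RNAs (snoRNAs), small nuclear RNAs (snRNAs) and transfer RNAs (tRNAs). Every named entry was taken, 18439 of the 368645 entries that the series holds over 5 organs. They comprise 10040 lncRNAs, 1482 snoRNAs, 1380 snRNAs and 5537 tRNA identifiers, of which 1047, 795, 555 and 1626 were listed at 0. The hearts came from 3 male mice labelled Ftsj1_DF, which are deficient in Ftsj1, and from 3 male wild-type mice (WT). All were 4 months old, received no treatment and carry the same batch label. Of the mice, 4 were brothers and the other 2 were brothers of each other, and both sets of brothers held both genotypes. The sources used here give neither the strain nor the way the gene was disrupted. Ftsj1 was read in poly-A libraries of the same hearts, where the authors' deposited table put it at 9.75% of the wild-type level (log2 fold change -3.36, SE 0.28, adjusted p = 4.69e-29).

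FTSJ1 is an enzyme that adds methyl groups to ribose in the anticodon loop of certain tRNAs. Small nucleolar RNAs guide the chemical modification of ribosomal and spliceosomal RNA and are mostly cut from introns of host genes. Small nuclear RNAs form the core of the spliceosome. The lncRNAs range from regulators of chromatin to transcripts with no assigned role, and some, such as Mhrt, are known for their part in heart muscle.

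All levels, log2 fold changes, standard errors (SE) and p-values below are those of the authors' deposited tables, and the level of each group is what the deposited mean level and fold change imply. A level is the mean normalised read count per library. It is not divided by length, so levels of different RNAs do not compare their molecules. Fold changes are Ftsj1_DF minus WT on the log2 scale, and a feature is said to have risen or fallen only where the authors' adjusted p was under 0.05. The tables give no values per library, so the spread of single hearts and the overlap of the groups cannot be shown, and depth per library is unknown. The p-values rest on the spread between these 6 mice as the authors' DESeq2 test estimated it, and may ignore the sets of brothers. The mean level summed to 12906326 reads for lncRNAs, 158929 for snoRNAs, 178707 for snRNAs and 21931507 for tRNA identifiers, many of which repeat the same values. Among entries with levels of at least 100, the median SE was 0.19 for lncRNAs, 0.24 for snoRNAs, 0.28 for snRNAs and 0.24 for tRNA identifiers.

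Markers of cardiomyocytes were at like levels in both groups in the poly-A libraries, whereas summed levels of markers of several other tissues differed. None of 8 cardiomyocyte markers passed the test, and their log2 fold changes lay between -0.06 and 0.14. All 7 lung epithelium markers were lower in Ftsj1_DF, with a summed level of 1777 in WT and 50.5 in Ftsj1_DF, and 6 of them have no p in the authors' deposited table, as DESeq2 leaves genes with an outlying library. The 7 adipocyte markers summed to 14395 and 3896, and 1 of them, Lep, had fallen. The 7 hepatocyte markers summed to 5732 and 1085, and the B and plasma cell markers, of which Ms4a1 was listed at 0, to 10049 and 2974, with none past the threshold. Neutrophil markers summed to 650 and 1773, and 4 of 6 had risen, where 0.541% of all genes with an adjusted p in that table passed. In whole hearts the share of a cell type or of another tissue in the sample and the RNA per cell cannot be told apart. Without values per library, a difference of single hearts cannot be told from a difference between the groups. The part of these cells in the non-coding results was not tested.

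Among the lncRNAs, 17 rose and 23 fell in Ftsj1_DF, together 40 of the 5871 that carry an adjusted p (0.681%, with 0.29% risen and 0.392% fallen). At an unadjusted p under 0.05 there were 689 of 8990 (7.66%), 276 higher and 413 lower. With a t distribution of 4 degrees of freedom in place of the normal one of the authors' test, none of the 40 passed. Even Gm12381, with the smallest p, then had an adjusted p of 0.931. With so few degrees of freedom no statistic of this size could pass, so this setting does not separate weak calls from strong ones. The called lncRNAs had mean levels from 15.5 to 18381 with a median of 394. Their log2 changes ranged in size from 0.45 to 4.12. The large changes came at low levels and with wide errors, as the plot of called lncRNAs shows.

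**Figure D1:**
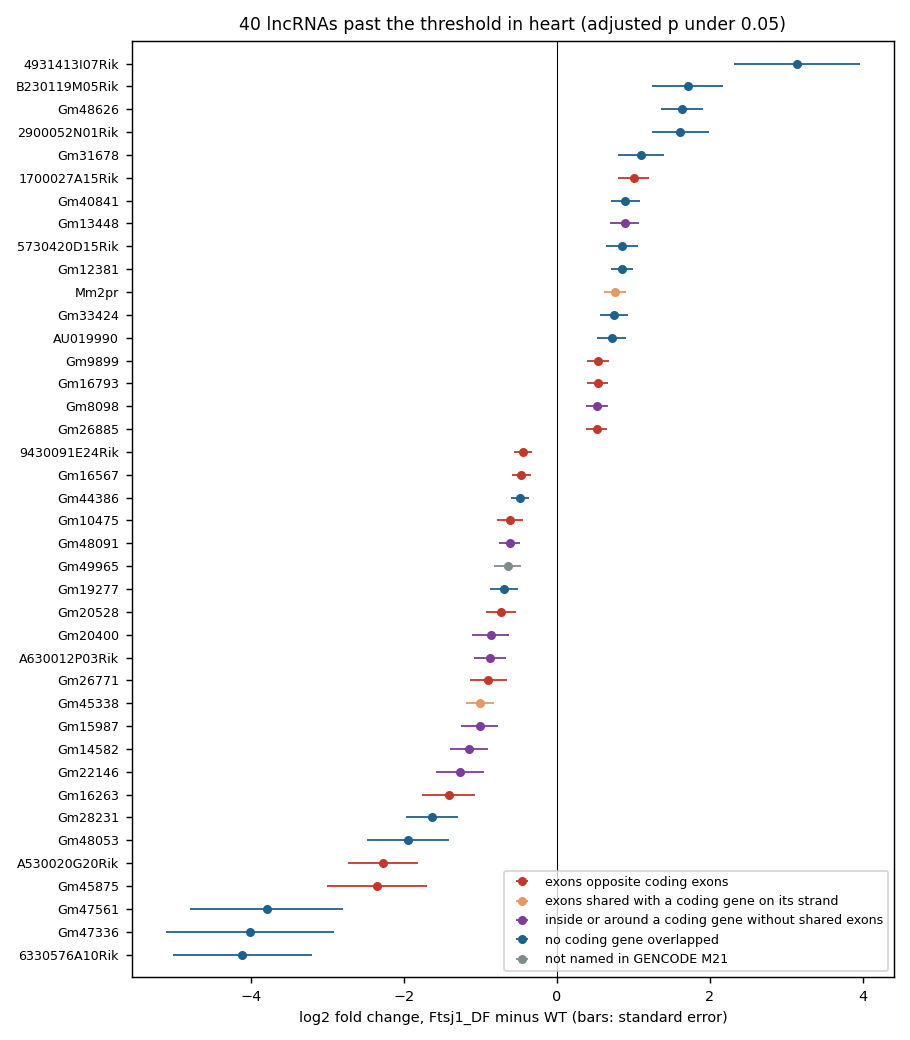
Log2 fold change (Ftsj1_DF minus WT) of each of the 40 called heart lncRNAs, with bars for the standard error and colours for the position relative to coding genes in GENCODE M21. The 17 risen lncRNAs reach 3.14 (4931413I07Rik) and the 23 fallen ones -4.12 (6330576A10Rik).

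Called in both the rRNA-depleted and the poly-A libraries were 4 lncRNAs. The first 150 bases of each are shown because these are the entries that passed in both kinds of library. They were taken from GENCODE M21 transcripts (build GRCm38), 5′ to 3′.
Gm12381: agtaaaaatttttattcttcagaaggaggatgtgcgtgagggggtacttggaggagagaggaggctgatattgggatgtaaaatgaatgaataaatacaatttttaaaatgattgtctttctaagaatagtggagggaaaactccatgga
Gm48626: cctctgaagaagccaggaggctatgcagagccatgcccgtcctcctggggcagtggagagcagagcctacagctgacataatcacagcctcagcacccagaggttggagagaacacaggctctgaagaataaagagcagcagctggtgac
2900052N01Rik: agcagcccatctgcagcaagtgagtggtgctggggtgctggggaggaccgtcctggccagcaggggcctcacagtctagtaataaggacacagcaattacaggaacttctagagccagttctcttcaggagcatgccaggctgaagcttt
9430091E24Rik: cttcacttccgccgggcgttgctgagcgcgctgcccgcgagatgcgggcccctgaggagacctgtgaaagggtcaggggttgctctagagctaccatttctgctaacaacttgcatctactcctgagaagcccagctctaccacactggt

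Gm12381, on chromosome 4 and overlapping no coding gene, had the smallest p of the lncRNA table. Its level was 6554 in WT and 11798 in Ftsj1_DF, a log2 fold change of 0.85 (SE 0.14, adjusted p = 5.06e-06), and in the authors' poly-A table it was 1.19 (SE 0.22, adjusted p = 1.28e-04). Gm48626, beside Eci2 on chromosome 13, stood at 93.1 and 289, a change of 1.63 (SE 0.27, adjusted p = 5.12e-06), with 1.66 in the poly-A table (adjusted p = 0.0234). Eci2, an enzyme of fatty acid breakdown, was at -0.33 there and did not pass (adjusted p = 0.652). 2900052N01Rik, on chromosome 9, stood at 43.0 and 131 (1.61, SE 0.37, adjusted p = 0.00746), with 1.61 in the poly-A table (adjusted p = 0.00167).

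The fourth, 9430091E24Rik on chromosome 8, had the highest level of the called lncRNAs and fell. It stood at 21198 in WT and 15564 in Ftsj1_DF (-0.45, SE 0.11, adjusted p = 0.0199), with -0.53 in the poly-A table (adjusted p = 0.0139). Its exons lie opposite those of Pdpr, which encodes the regulatory subunit of pyruvate dehydrogenase phosphatase. Pdpr was at -0.55 (adjusted p = 0.164) in the poly-A table.

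The 2 kinds of library come from the same mice, so their values stand side by side and are not independent. Of 2101 lncRNAs with a mean level of 10 or more in both tables, 21 were called in the rRNA-depleted and 13 in the poly-A libraries, and the 4 above are 19% of the former and 30.8% of the latter. Over all lncRNA names in the poly-A table, 0.538% of those with an adjusted p passed. Meg3, an imprinted lncRNA, fell in the poly-A table (-0.63, SE 0.12, adjusted p = 4.18e-04) and was at -0.41 (SE 0.14, adjusted p = 0.138) in the rRNA-depleted one. Snhg8, a host gene of snoRNAs, rose in the poly-A table (0.96, SE 0.24, adjusted p = 0.0197) and was at 0.12 (SE 0.20) here. Whether the 2 kinds of library differ for these genes was not tested.

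Called lncRNAs occurred at each position relative to coding genes, mostly in shares near the 0.681% of the whole table. Exons opposite coding exons were found for 12 of the called (0.653% of 1837 adjusted). A place inside or around a coding gene without shared exons was found for 8 (0.632% of 1266), and no overlap with a coding gene for 17 (0.756% of 2249). Exons shared with a coding gene on the same strand were found for 2 (2.25% of 89), and 1 of 430 (0.233%) is not named in GENCODE M21. On the X chromosome, which carries Ftsj1, 3 of 89 adjusted lncRNAs were called (3.37%). Of these, Gm14582 and A630012P03Rik lie inside the same gene, Gpc3. None of the 8 lncRNAs within 1 Mb of Ftsj1 passed, and their changes ran from -0.47 to 0.46 with 1 at an unadjusted p under 0.05. The library kit keeps the strand, but the sources used here do not say whether counting used it. Where a lncRNA overlaps a coding gene, called or not, reads of the lncRNA and of that gene therefore cannot be told apart.

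Coding genes overlapped by or beside the called lncRNAs were read in the poly-A table of the same mice. At a mean level of 10 or more there were 24 such genes for 24 lncRNAs, and 4 of the genes passed, where 0.541% of all genes in that table did. 2 of the 4 rose. 4931413I07Rik, beside Angptl4 on the same strand of chromosome 17, rose from 4.08 to 35.9 (3.14, SE 0.82, adjusted p = 0.0336). Angptl4, a secreted inhibitor of lipoprotein lipase, rose by 1.31 (SE 0.25, adjusted p = 4.41e-04). B230119M05Rik, beside Armcx4 on the other strand of the X chromosome, rose from 26.5 to 86.5 (1.71, SE 0.46, adjusted p = 0.0403), and Armcx4 rose by 0.72 (SE 0.13, adjusted p = 9.56e-05).

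The other 2 genes fell, as did the lncRNAs at them. Gm45338 on chromosome 16 overlaps Masp1 on the other strand and shares exons with Rtp4. It went from 533 to 266 (-1.0, SE 0.18, adjusted p = 1.06e-04). Masp1, a serine protease of the lectin pathway of complement, was at -0.83 (SE 0.16, adjusted p = 7.16e-04), whereas Rtp4 was at 0.48 and did not pass (adjusted p = 0.422). Gm10475, with exons opposite Reln, went from 691 to 450 (-0.62, SE 0.17, adjusted p = 0.0374). Reln, a secreted glycoprotein of the extracellular matrix, was at -0.56 (SE 0.15, adjusted p = 0.0456).

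Inside Gpc3 on the X chromosome, which encodes a glypican of the cell surface, 2 lncRNAs on the other strand fell. Gm14582 went from 535 to 242 (-1.15, SE 0.25, adjusted p = 0.00270) and A630012P03Rik from 811 to 442 (-0.87, SE 0.21, adjusted p = 0.00912). Gpc3 itself was at -0.63 (SE 0.23, adjusted p = 0.268). Gm16263, opposite the growth factor gene Fgf10, went from 245 to 91.9 (-1.42, SE 0.34, adjusted p = 0.0131), beside -1.11 (SE 0.38, adjusted p = 0.219) for Fgf10. Gm26771, opposite Sfrp2, which encodes a secreted modulator of Wnt signalling, was at -0.90 (SE 0.24, adjusted p = 0.0374), beside -0.61 (SE 0.36) for Sfrp2. These coding genes did not pass.

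**Figure D2:**
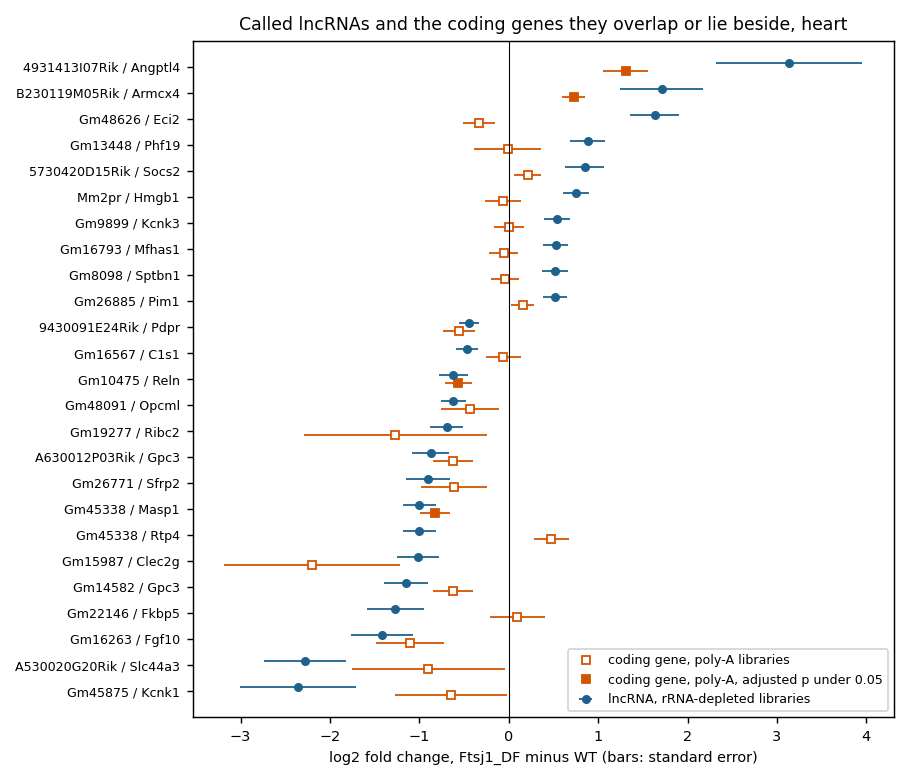
Log2 fold change (Ftsj1_DF minus WT) with its standard error of called lncRNAs in rRNA-depleted libraries and of the coding gene each overlaps or lies beside in poly-A libraries of the same mice. Angptl4, Armcx4, Masp1 and Reln are the 4 coding genes that passed.

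Other coding genes lay near 0 beside a lncRNA that had risen. Mm2pr, which shares exons with the chromatin protein gene Hmgb1, rose from 5533 to 9345 (0.76, SE 0.15, adjusted p = 3.14e-04), with Hmgb1 at -0.06 (SE 0.20). Gm9899, opposite the potassium channel gene Kcnk3, rose by 0.54 (SE 0.14, adjusted p = 0.0336), with Kcnk3 at 0.00 (SE 0.17). Gm16793 rose by 0.53 (SE 0.14) opposite Mfhas1, which was at -0.06 (SE 0.16). Likewise Gm13448 rose by 0.88 (SE 0.19) inside Phf19 and Gm8098 by 0.52 (SE 0.14) inside the spectrin gene Sptbn1, while these genes were at -0.01 (SE 0.38) and -0.04 (SE 0.16). Gm26885, opposite the kinase gene Pim1, rose by 0.52 (SE 0.14), with Pim1 at 0.16 (SE 0.13). 1700027A15Rik rose from 249 to 497 (1.00, SE 0.20) opposite Tnp1, a sperm chromatin gene that was listed at 0.

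Beside other fallen lncRNAs no coding gene passed. Gm22146, inside Fkbp5, which encodes a co-chaperone of steroid receptors, fell from 250 to 104 (-1.27, SE 0.32, adjusted p = 0.0192), with Fkbp5 at 0.10 (SE 0.31). Gm16567, opposite the complement protease gene C1s1, fell from 7608 to 5499 (-0.47, SE 0.12, adjusted p = 0.0336), with C1s1 at -0.06 (SE 0.20). Gm48091 fell by 0.62 (SE 0.14) inside Opcml, a cell adhesion gene, which was at -0.43 (SE 0.33). Gm20528, opposite the Ugt1a genes of glucuronidation, went from 2436 to 1460 (-0.74, SE 0.20, adjusted p = 0.0362). Its level in the separately normalised liver table was 127425, and a link of that level to the fall in heart was not tested.

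Called lncRNAs that overlap no coding gene comprised 10 that rose and 7 that fell. Gm40841 on chromosome 13 went from 1983 to 3686 (0.89, SE 0.19, adjusted p = 0.00155), Gm33424, also on chromosome 13, from 262 to 440 (0.75, SE 0.18, adjusted p = 0.0133). 5730420D15Rik, beside Socs2, a feedback inhibitor of cytokine signalling, went from 178 to 320 (0.85, SE 0.22, adjusted p = 0.0231), with Socs2 at 0.21 (SE 0.15). Gm31678 rose by 1.10 (SE 0.30) and AU019990 by 0.71 (SE 0.18). The abundant Gm44386 fell from 5067 to 3613 (-0.49, SE 0.11) and was at 0.01 in the poly-A table. Gm19277, beside Ribc2, was at -0.69 (SE 0.19), and Gm49965, which is not named in GENCODE M21, at -0.65 (SE 0.18).

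The steepest falls were at low levels. 6330576A10Rik went from 46.8 to 2.69 (-4.12, SE 0.91, adjusted p = 0.00318), Gm47336 from 29.2 to 1.80 (-4.02, SE 1.10, adjusted p = 0.0413) and Gm47561 from 35.0 to 2.51 (-3.80, SE 1.00, adjusted p = 0.0336). A530020G20Rik, opposite the transporter gene Slc44a3, went from 164 to 33.9 (-2.28, SE 0.46, adjusted p = 5.61e-04). Gm45875, opposite the potassium channel gene Kcnk1, was at -2.35 (SE 0.65), Gm48053 at -1.95 (SE 0.54) and Gm28231 at -1.64 (SE 0.34). Of the 10 called lncRNAs with a mean level under 100, 7 had fallen, beside 23 of all 40. Summed levels of the lung, fat, liver and B cell markers given above were lower in Ftsj1_DF, and those of neutrophil markers were higher. The part of these cells in the changes was not tested. Gm15987, inside Clec2g, went from 1337 to 662 (-1.01, SE 0.24, adjusted p = 0.00793), and its level in the separately normalised spleen table was 48362. Here too a link of that level to the fall in heart was not tested. Without a p as count outliers were 3 lncRNAs, all lower in Ftsj1_DF, with levels of 887 and 308 for Gm47947, 249 and 27.3 for Gm29129, and 49.8 and 2.78 for 4921508D12Rik.

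Most reads counted for lncRNAs in heart fell to entries opposite coding genes. The strand setting of the counting is not known, so these levels may hold reads of the coding genes. Entries with exons opposite coding exons held 65.2% of the summed level, and 11 of the 12 entries with the highest levels were of this kind, against 3 in brain, 10 in kidney, 8 in liver and 1 in spleen. Gm13938, opposite Ttn, the gene of the giant muscle protein titin, held 18.2%. It stood at 2142339 in WT and 2565855 in Ftsj1_DF and was listed at 0 in the poly-A libraries of the same hearts, in which Ttn had a level of 267748. A530058N18Rik, with Gjd2 and the cardiac actin gene Actc1 on the other strand, stood at 925345 and 850687. Gm47644, opposite Pln, which encodes an inhibitor of the calcium pump, stood at 522577 and 468485. Actc1 and Pln are listed at 0 in the poly-A table, as is the cardiac troponin gene Tnnc1. Since heart muscle uses these genes, a 0 there is not read as absence. Of 1431 entries opposite coding exons with a level of 100 or more, 43.6% were listed at 0 in the poly-A table, against 10.3% of 874 that overlap no coding gene.

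None of these 12 entries passed the threshold. Gm13938 had a log2 fold change of 0.26 with a 95% interval from 0.02 to 0.50 (adjusted p = 0.425). Gm31251, opposite the slow myosin gene Myh7, went from 144707 to 104119 (-0.47, SE 0.16, adjusted p = 0.144), with Myh7 at -1.11 (SE 0.50, adjusted p = 0.494) in the poly-A table. Gm13601, opposite Xirp2, a gene of the intercalated disc, was at -0.37 (SE 0.13, adjusted p = 0.166), with Xirp2 at -0.22 (SE 0.11). Malat1, a nuclear lncRNA that overlaps no coding gene, stood at 1024821 and 1073574, a change of 0.07 with a 95% interval from -0.16 to 0.30. Rmrp, the RNA of RNase MRP, stood at 148672 and 171723 (0.21, SE 0.18).

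**Figure D3:**
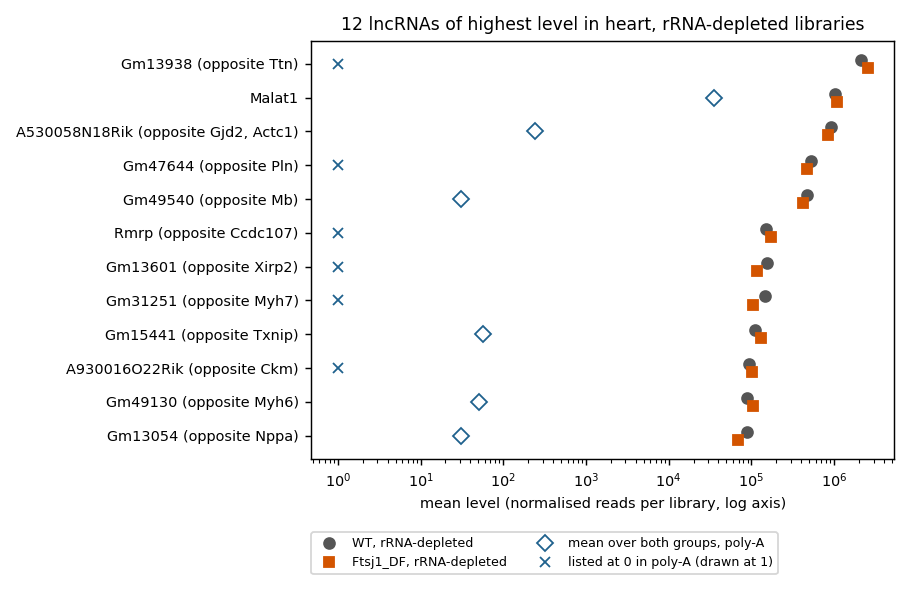
Mean level on a log axis (normalised reads per library) of the 12 heart lncRNAs with the highest levels, with the coding genes on the other strand, for WT and Ftsj1_DF in rRNA-depleted libraries and for poly-A libraries. WT and Ftsj1_DF lie close together on each line, none of the 12 passed the threshold, and Malat1 has a poly-A level of 35662. Levels of entries opposite coding genes may hold reads of those genes.

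Lists of lncRNAs with known roles held no called member, where 0.681% of all lncRNAs were called. Of the 17 cardiac and vascular lncRNAs listed, 11 were found, all at a level of 10 or more, 5 higher and 6 lower. Their median log2 change was -0.01, as was that of all 6042 lncRNAs at this level. Mhrt, transcribed from the myosin heavy chain locus, stood at 50505 and 46228 (-0.13, 95% interval -0.38 to 0.13). Hand2os1, across from the transcription factor gene Hand2, stood at 13305 and 14198 (0.09, 95% interval -0.12 to 0.31), and Carmn, a lncRNA of smooth muscle and heart, at 6405 and 6346 (-0.01, 95% interval -0.23 to 0.21). Fendrr, with a level of 80.0 in WT and 57.9 in Ftsj1_DF, had the wide interval from -1.26 to 0.33. Gata6os was at 0.14 (SE 0.11), Bvht at -0.02 (SE 0.12) and Chaer1 at 0.03 (SE 0.19). Exons of Mhrt and Hand2os1 lie opposite those of Myh7 and Hand2, so their levels may hold reads of these genes.

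The imprinted lncRNAs Meg3, Rian and Mirg of the Dlk1 to Dio3 region on chromosome 12 were lower in Ftsj1_DF in the rRNA-depleted libraries without passing. Meg3 stood at 3668 and 2765, Rian, a host of snoRNAs, at 2662 and 2005 (-0.41, SE 0.14, adjusted p = 0.171) and Mirg, a host of microRNAs, at 383 and 290 (-0.40, SE 0.22, adjusted p = 0.551). In the poly-A table Rian was at -0.41 (SE 0.24) and Mirg at 0.05 (SE 0.41). All 7 lncRNAs of the region with a level of 10 or more had negative fold changes, and so had the 2 snoRNAs of the region at that level, Gm24895 (-0.47, SE 0.36) and Gm22205 (-4.27, SE 2.45). At any level, 9 of the 11 lncRNAs of the region with a p were lower, and 12 of the 17 such snoRNAs. These entries come from a single region and are not independent. Of the 8 imprinted lncRNAs in the list, Airn, which silences Igf2r, was at 0.14 (SE 0.11), Kcnq1ot1 at 0.06 (SE 0.13) and H19 at -0.06 (SE 0.18).

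The nuclear and X chromosome list (11 at a level of 10 or more, 7 higher), the snoRNA host genes (19, of which 10 higher) and the immune lncRNAs (9, of which 4 higher) had medians of 0.07, 0.06 and -0.01. Neat1, the scaffold of paraspeckles, was at 0.19 (SE 0.14), Norad at 0.05 (SE 0.11) and Firre at 0.07 (SE 0.11). Tsix, the antisense partner of Xist, was at 0.64 (SE 0.28, adjusted p = 0.347). Gas5, a host gene known for its part in growth arrest, was at -0.22 (SE 0.15) and Snhg1 at 0.20 (SE 0.17). Terc, the RNA template of telomerase, stood at 55.1 and 138 (1.33, SE 0.44, adjusted p = 0.135).

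The heart was compared with the other 4 organs of the same mice by a z test of its log2 fold change against their inverse-variance mean. Of 5958 lncRNAs with a level of 10 or more in heart, 11 differed at an adjusted p under 0.05 (0.185%), and 9 of these were called in heart. Gm12381, Mm2pr and 2900052N01Rik were among those higher in heart than that mean. Gm12381 was at 0.64 (SE 0.30) in brain, -0.32 (SE 0.22) in kidney, 0.24 (SE 0.40) in liver and -0.18 (SE 0.24) in spleen. 2900052N01Rik had levels of 4689 in brain and 4079 in spleen, with changes of -0.04 (SE 0.12) and -0.09 (SE 0.13) there. Gm14582 inside Gpc3 was at 0.10 (SE 0.22) in brain, -0.02 (SE 0.18) in kidney, 0.24 (SE 0.42) in liver and -0.23 (SE 0.21) in spleen. Called in another organ too were 2 of the 40, where 0.732% of the 5871 lncRNAs with an adjusted p in heart were, and 10 of the 40 had an unadjusted p under 0.05 in another organ, where 13.4% of the 5871 did. Of the 40, 2 were listed at 0 in at least 1 other organ. The 2 called elsewhere were Gm20400, inside the transporter gene Slco1a6, which was at -0.87 (SE 0.24) in heart and -0.73 (SE 0.17) in kidney, and Gm22146, which was at 1.51 (SE 0.35) in liver. No snoRNA of 335 and no snRNA of 269 differed by this test, with 11 and 4 at an unadjusted p under 0.05. The test takes the organs as independent, although they come from the same mice.

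**Figure D4:**
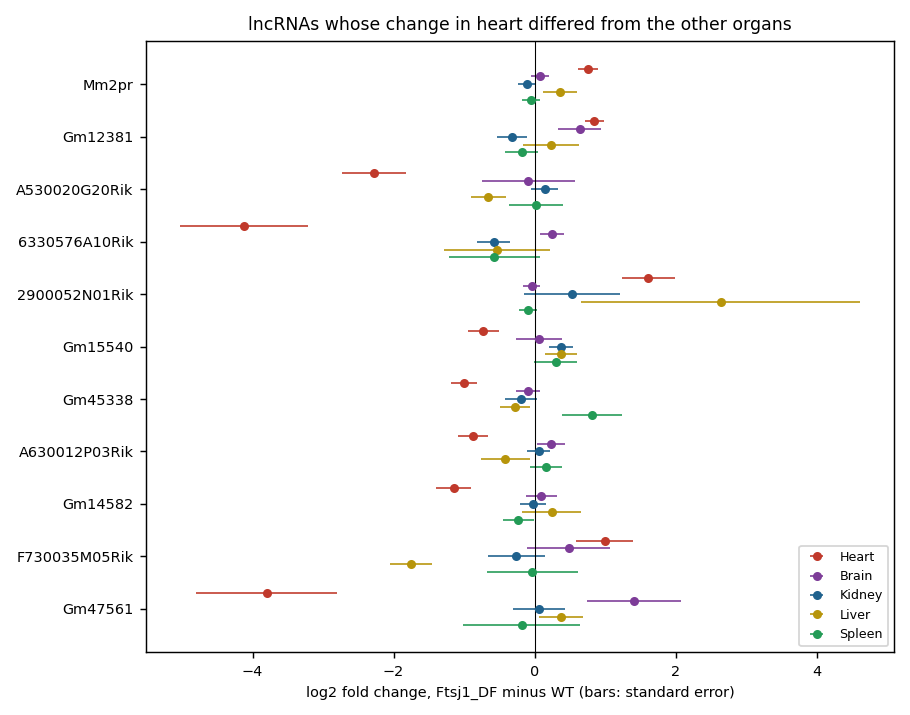
Log2 fold change (Ftsj1_DF minus WT) with its standard error in heart, brain, kidney, liver and spleen for the 11 lncRNAs whose change in heart differed from that of the other organs. The differences between heart and the mean of the others run from -4.14 (Gm47561) to 1.88 (F730035M05Rik).

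No snoRNA passed the threshold of the authors' DESeq2 test, of 687 with an adjusted p (0%), and 17 had an unadjusted p under 0.05 (2.47%), 11 higher and 6 lower. At a level of 10 or more, AF357399, inside the ribosomal protein gene Rps16 on chromosome 7, had the smallest p. It stood at 68.5 in WT and 25 in Ftsj1_DF (-1.45, SE 0.49, adjusted p = 0.982), and Rps16 was at 0.60 (adjusted p = 0.132) in the poly-A table. Gm22357, inside Gas5 on chromosome 1, stood at 326 and 228 (-0.52, SE 0.24, adjusted p = 0.982). The sequences of both, from GENCODE M21, are shown because they had the lowest p in a ribosomal protein host and in Gas5. Capitals in Gm22357 mark the C box letters TGATGA, searched in the first 25 bases, and the D box letters CTGA, searched in the last 25 bases, which together occur in 302 of 1376 snoRNA sequences (21.9%).
AF357399: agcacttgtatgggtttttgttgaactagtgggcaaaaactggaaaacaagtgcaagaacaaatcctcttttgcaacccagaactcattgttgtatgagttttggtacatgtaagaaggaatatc
Gm22357: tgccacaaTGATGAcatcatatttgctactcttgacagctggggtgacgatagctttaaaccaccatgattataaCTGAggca

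Inside Gas5, 8 snoRNAs had a level of 10 or more, 7 of them lower, with a median of -0.34. Of all 340 snoRNAs at that level, 158 were lower. Snord47 was at 0.09 (SE 0.45), Snord78 at -0.04 (SE 0.30) and Snord80 at -0.21 (SE 0.34). The 3 inside Rpl23a ran from -0.62 to -0.39 and the 3 inside Rack1 from 0.29 to 0.40. Other hosts held snoRNAs in both directions, such as Snhg1 (-0.67 to 0.36) and Taf1d (-0.33 to 0.42). By letters, 110 snoRNAs with ACA box letters had a median of 0.12 and 72 with C and D box letters a median of 0.00, where the median of all 340 at a level of 10 or more was 0.04. None of these groups held a called member.

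Of 26 snoRNAs with a level of 1000 or more, 20 were higher in Ftsj1_DF, with a median of 0.14 and a range from -0.21 to 0.42. Scarna10, a guide RNA of Cajal bodies, had the highest level at 27057 and 26484 (-0.03, 95% interval -0.35 to 0.29). Gm22988, inside the translation factor gene Eif4a1, stood at 22683 and 27449 (0.28, SE 0.21), and Snord17 at 10209 and 8847 (-0.21, SE 0.17). Gm23455, inside Taf1d, stood at 1196 and 1596 (0.42, SE 0.18, adjusted p = 0.982). Among snoRNAs that take part in cutting ribosomal RNA, 9 box C/D members had a median of 0.05 and 2 box H/ACA members a median of 0.31. Snord3a, a U3 RNA, was at 0.05 (SE 0.18), Snord118, the U8 RNA, at 0.48 (SE 0.31), Snord13 at -0.45 (SE 0.36) and Snora73b, a U17 RNA, at 0.29 (SE 0.21). All 17 entries named Snord115 or Snord116, known from brain, were listed at 0.

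No snRNA passed the authors' DESeq2 test either, of 825 with an adjusted p (0%), and 9 had an unadjusted p under 0.05 (1.09%), 2 higher and 7 lower. Spliceosomal RNAs have many copies in the genome, among which reads can be split. The U1 family, here 27 entries with at least 90% identity to Rnu1b1, held 53.0% of the snRNA level. Of its copies, 4 are given whole from GENCODE M21 to show how little they differ, with capitals where a base differs from that of Gm22513, which held 90.2% of the family's level.
Gm22513: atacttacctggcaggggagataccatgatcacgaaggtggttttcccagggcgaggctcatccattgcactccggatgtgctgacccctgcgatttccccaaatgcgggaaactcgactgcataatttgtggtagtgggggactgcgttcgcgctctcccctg
Rnu1a1: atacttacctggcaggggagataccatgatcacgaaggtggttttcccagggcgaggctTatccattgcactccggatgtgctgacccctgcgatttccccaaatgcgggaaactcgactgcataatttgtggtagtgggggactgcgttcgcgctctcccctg
Rnu1b1: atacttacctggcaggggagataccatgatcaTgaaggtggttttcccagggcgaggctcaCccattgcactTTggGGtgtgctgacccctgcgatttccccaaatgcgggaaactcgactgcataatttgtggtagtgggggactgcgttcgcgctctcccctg
Rnu1b6: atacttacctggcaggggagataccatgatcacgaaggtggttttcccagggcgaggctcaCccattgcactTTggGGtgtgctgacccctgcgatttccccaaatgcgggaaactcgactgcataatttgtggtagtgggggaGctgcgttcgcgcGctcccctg

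The stretch of U1 that pairs with the start of introns (ACTTACCTG) was found in 25 of the 27 entries. Gm22513 stood at 82718 in WT and 88214 in Ftsj1_DF (0.09, SE 0.24). Rnu1a1, 1 edit away from it, stood at 225 and 301 (0.42, SE 0.28) and Rnu1b6, 7 edits away, at 1742 and 1714 (-0.02, SE 0.25). Rnu1b1 and Rnu1b2 have the same sequence but were listed at -0.08 (SE 0.52) and -1.69 (SE 0.80), so values of single copies are uncertain. Summed over the family, U1 came to 92316 in WT and 97288 in Ftsj1_DF.

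Among other spliceosomal families, U2 summed to 34423 and 37493, with 10 of 12 entries higher, and U12, of the minor spliceosome, to 19180 and 16312. Rnu12 stood at 18530 and 15712 (-0.24, 95% interval -0.71 to 0.23) and Rnu11 at 1358 and 1390 (0.03, SE 0.28).

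For tRNAs the authors' deposited table lists database identifiers that the files do not pair with names, so no amino acid or anticodon is given. Of 574 identifiers with an adjusted p, 21 passed (3.66%), all lower in Ftsj1_DF, and 133 of 3911 had an unadjusted p under 0.05 (3.4%), 86 lower and 47 higher. Many identifiers share values. The 3911 above 0 hold 2976 distinct sets of mean level, fold change and SE, and the 21 called ones hold 6 (1.28% of 467). The largest called set, of 8 identifiers, went from 142684 to 84488, 59.2% of WT (-0.76, SE 0.20, adjusted p = 0.00929). A set of 3 identifiers went from 115784 to 67963 (-0.77, SE 0.19, adjusted p = 0.00929). The other 4 sets had lower levels and changes of similar size. They went from 19479 to 12200 (-0.68, SE 0.21), from 19434 to 12155 (-0.68, SE 0.21), from 7445 to 4463 (-0.74, SE 0.23) and from 7188 to 4271 (-0.75, SE 0.23), with adjusted p of 0.0364 for the third of these and 0.0330 for the rest.

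Fold changes of tRNA entries went with their level. All 39 distinct sets with a level of 10000 or more were lower in Ftsj1_DF, with a median of -0.34 and a range from -0.77 to -0.10. Many of these sets are near copies of each other: with sets joined whose neighbouring mean levels differ by at most 5%, the 39 form 15 groups and the 6 called sets form 4, so they are not separate measurements. From 1000 to 10000, 29 of 44 were lower with a median of -0.20. From 100 to 1000, 36 of 99 were lower with a median of 0.08, and from 10 to 100, 402 of 932 with a median of 0.10. The values are relative to the scaling of the whole table. With the median of identifiers at a level of 1000 or more set to 0, a shift of -0.36, none of the 21 passed and 3 others did, all higher, and with that of identifiers at 10000 or more set to 0, none passed. A fall of abundant entries and a rise of the low ones therefore cannot be told apart here. None passed when all 3911 identifiers were adjusted together, and 2 of the sets passed when each distinct set was counted once. None passed with the t distribution either, under which no statistic of this size could.

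**Figure D5:**
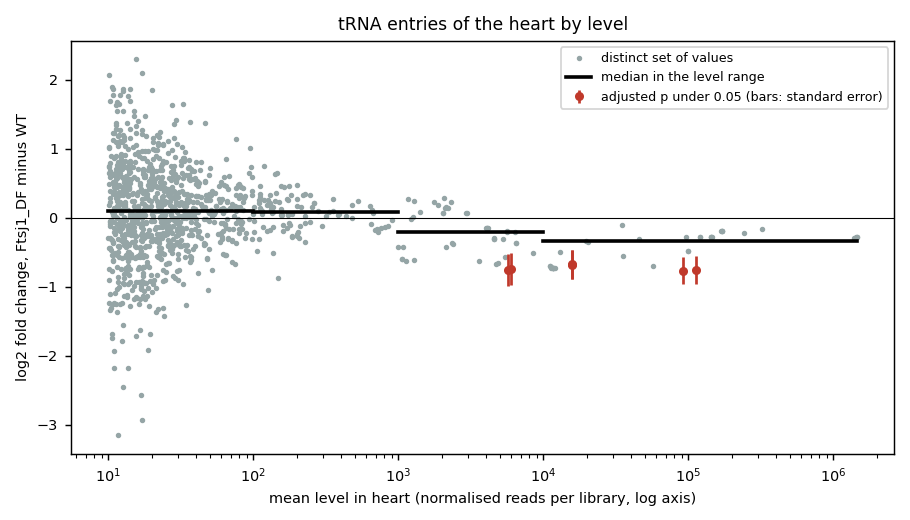
Log2 fold change (Ftsj1_DF minus WT) against mean level on a log axis (normalised reads per library) for each distinct set of heart tRNA values with a level of 10 or more, with the called sets marked. The median falls from 0.10 at levels of 10 to 100 to -0.34 at 10000 or more, where all 39 sets lie below 0.

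In the other organs the medians of the same abundant identifiers were above 0. The 87 identifiers with a level of 10000 or more in heart had a median log2 change of -0.31 in heart, 0.06 in brain, 0.19 in kidney, 0.55 in liver and 0.18 in spleen. Each value is relative to its own table. In liver 13 of them passed, all higher, where 6.01% of 466 liver identifiers with an adjusted p passed. These 13 are not separate measurements, as their heart levels lie from 11130 to 12036 with neighbours at most 5% apart. Their changes in liver ran from 2.29 to 2.34, and they had no p in kidney. The set with the highest heart level among them was at -0.73 (SE 0.74) in heart. Against the inverse-variance mean of the other organs, 18 of 1209 identifiers differed (1.49%). The largest called set was at 0.06 (SE 0.15) in brain, 0.27 (SE 0.17) in kidney, 0.57 (SE 0.33) in liver and 0.08 (SE 0.23) in spleen, and passed in none of them. The set with the highest heart level, 1451885, was not called in heart (-0.28, SE 0.21, adjusted p = 0.718). It was at -0.19 (SE 0.19) in brain, -0.36 (SE 0.21) in kidney, -0.12 (SE 0.30) in liver and 0.31 (SE 0.19) in spleen. By Cochran's Q over the 5 organs no tRNA identifier differed.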

How the data were processed

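RNA of whole hearts was extracted with phenol and made into stranded total RNA libraries depleted of ribosomal RNA, per the labels' protocols. Reads were counted with featureCounts (Subread 2.0.3) on GRCm39 and compared with DESeq2, per the submitters' processing notes, and the sources used here do not give the strand setting. The deposited tables hold, for each feature, a mean level (a signal of normalised reads over all libraries of the comparison), a log2 fold change with its standard error, and the Wald statistic, a score. The deposited p-value and Benjamini-Hochberg adjusted p-value were used as the authors' DESeq2 gave them, with n = 3 mice against 3. Depth per library is unknown and sets the precision only through the deposited SE.

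From these, group levels, 95% intervals (normal), the test of heart against the other organs (features with a level of 10 or more, Benjamini-Hochberg) and all alternatives were computed with Python 3.11.15, numpy 2.4.6, pandas 2.3.3 and scipy 1.17.1, figures were drawn with matplotlib 3.10.9, and snRNA copies were aligned with edlib 1.3.9.post1. Whether the authors' test took the litters into account is not stated in these sources, and the p-values may ignore them. The scripts were tested on simulated data. Names, chromosomes, sequences and positions relative to coding genes came from GENCODE M21 (GRCm38), and no coordinates are given because the builds differ. A neighbour lies within 5 kb.

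The members and lists were chosen with earlier results of these data known. Named are, per table, called features or (above 30 calls) the 15 per direction with the largest change and the 10 with the smallest p, the 5 smallest p per direction where fewer than 5 passed, the 8 with the highest levels, list members, count outliers at a level of 50 or more, and up to 10 features that differ between organs, and the text leaves some of these out. Called lncRNAs and count outliers beyond this rule, the remaining lncRNA that differs between organs, single snoRNA hosts, U1 copies and members of the Dlk1 to Dio3 region were named after their values were seen. A sequence and the snRNA results that need it are not reported here.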

Additional observations from a re-analysis of the deposited data

Results flagged for a closer look

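The log2 fold change in heart differed from the inverse-variance mean of the other 4 organs for 11 lncRNAs and, among tRNAs, for 18 identifiers in 5 distinct sets. Higher in heart than that mean were Mm2pr by 0.75 (SE 0.16, adjusted p = 0.0128), Gm12381 by 0.88 (SE 0.19), 2900052N01Rik by 1.66 (SE 0.38) and F730035M05Rik by 1.88 (SE 0.46). F730035M05Rik was not called in heart (0.99, SE 0.41) and stood at -1.75 (SE 0.30) in liver.

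For the other lncRNAs the difference was negative: -2.15 (SE 0.48) for A530020G20Rik, -4.03 (SE 0.92) for 6330576A10Rik, -1.05 (SE 0.25) for Gm15540, -0.89 (SE 0.21) for Gm45338, -0.96 (SE 0.23) for A630012P03Rik, -1.12 (SE 0.27) for Gm14582 and -4.14 (SE 1.02, adjusted p = 0.0271) for Gm47561. Gm15540 was not called in heart (-0.72, SE 0.22, adjusted p = 0.0803).

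The tRNA sets differed by -0.93 (SE 0.22) at a heart level of 113586, -0.90 (SE 0.22) at 91874, -0.88 (SE 0.25) at 56654, -0.78 (SE 0.23) at 15794 and -0.78 (SE 0.23) at 15839. Their adjusted p ran from 0.00404 to 0.0455, and by Cochran's Q from 0.0597 to 0.353. The organs share mice, and each tRNA value is relative to the scaling of its own table.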

How the results depend on the processing

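No paired analysis was possible because the tables give no values per library. A block for the litters, which hold both genotypes, and leaving out each mouse could not be run for the same reason, and no mouse number occurs in both genotypes. The 40 called lncRNAs became 82 at an adjusted p under 0.10, 16 under 0.01, 22 when the 4 tables were adjusted together (21 of them shared) and 0 with a t distribution of 4 degrees of freedom in place of the normal. Among lncRNAs that overlap no coding gene there were 17. Centred on the median the count was 46, of which 24 (52.2%) had risen, against 42.5% of the 40, and without independent filtering it was 28.

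The 21 called tRNA identifiers became 0 without independent filtering, 0 with the t distribution, 11 at a mean level of 10 or more, 37 at an adjusted p under 0.10, 11 under 0.01 and 3 with the 4 tables adjusted together. With the t distribution no statistic of the size seen among lncRNAs or tRNAs could pass the adjustment. Chosen after seeing the data were 3 alternatives: centring on identifiers at 1000 or more left 3, all higher and none shared, centring on those at 10000 or more left 0, and each distinct set counted once left 2. The restriction to lncRNAs without coding overlap was also added then. No snoRNA and no snRNA was called under any alternative run. The organ test of lncRNAs gave 25 by Cochran's Q in place of 11 (6 shared), and that of tRNAs 0 in place of 18. Alternatives other than centring kept the deposited fold change, so they could not change a direction. Under centring the called lncRNAs and the called tRNA sets kept theirs. Precision was better at higher levels: the median SE of lncRNAs was 0.31 at a level of 10 or more and 0.19 at 100 or more.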

Other observations

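In the separately normalised table of each organ, Meg3 and Rian had their highest levels in brain, at 123297 and 58511 reads, where their log2 changes in the rRNA-depleted libraries were 0.05 (SE 0.18) and 0.13 (SE 0.13), beside -0.41 (SE 0.14) for both in heart. In spleen they were at -0.32 (SE 0.24) and -0.36 (SE 0.18), in kidney at -0.52 (SE 0.53) and -0.38 (SE 0.60), and in liver at 0.12 (SE 0.26) and 0.60 (SE 0.36). None passed. These organs come from the same mice.

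By chromosome, beside 0.681% of all heart lncRNAs with an adjusted p, the called share was 3.37% on the X (3 of 89), 1.9% on chromosome 17 (3 of 158) and 1.45% on chromosome 13 (5 of 346), and chromosomes 7, 12, 18, 19 and Y held none. These shares were not tested, and Gm14582 and A630012P03Rik on the X lie inside the same gene, Gpc3. Of the genes in the heart poly-A table, 47 had no p as count outliers, and 45 of these were lower in Ftsj1_DF.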
